A study of Homo sapiens with 24 samples.

Results

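ATRX_KO cells were compared with WT cells without etoposide, across all expressed genes, in 6 of the 24 RNA-seq libraries of a study of DAXX, ATRX and p53. The 6 libraries were chosen by their labels alone, 3 replicate libraries of WT control cells and 3 of ATRX_KO control cells, and no expression value was used for the choice. Of the 57736 genes in the count table, 16371 had enough counts to be tested. The other libraries of the study hold the same WT and ATRX_KO cells with etoposide, an inhibitor of topoisomerase II that breaks DNA, and a second series of WT and DAXX_KO cells. They are used here only where a result in the control cells is set beside them.

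All groups are derivatives of U87-T, a line made from the human glioblastoma line U87 by transduction with a TERT transgene flanked by lox sites. The WT cells carry an empty Cas9 lentiviral vector and are labelled wild type for both genes. ATRX_KO is 1 clone, designated A-d#1, that was selected after editing of ATRX and that the study describes as ALT-like, with features of the ALT pathway of telomere maintenance. What ATRX loss, selection of a single clone and the ALT-like features each contribute therefore cannot be told apart in these libraries. The labels call the control cells untreated, whereas the paper's figures call them DMSO. The cells were grown in DMEM with fetal bovine serum. Nothing in the labels ties a library to a culture of its own, and the paper's reporting summary speaks of biological duplicates or triplicates, so the p-values measure the spread between these libraries, which may in part be technical.

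ATRX is a SNF2-family chromatin remodeler that, together with the histone chaperone DAXX, deposits the histone variant H3.3 at telomeres, pericentromeric heterochromatin, silenced repeats and the bodies of zinc finger genes. Germline mutations cause a syndrome with alpha-thalassemia and intellectual disability. In gliomas, loss of ATRX is the alteration most closely tied to ALT, in which telomeres are maintained by recombination.

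The WT control libraries held 12282528 to 13298557 counts and the ATRX_KO control libraries 11352336 to 12577799. Expression is given as CPM, counts per 1000000 of the library total after TMM scaling, and 3 counts, the most that a library with 0 counts is taken to allow, were 0.233 to 0.261 CPM. This floor covers counting error only, because the reads carried no molecular identifiers. The libraries were made from the 3′ ends of polyadenylated RNA, so CPM values are compared between groups and not between genes. The first principal component separated the genotypes and held 70% of the variance. Of 10 markers of mesenchymal glioblastoma lines, all 10 were expressed, 3 were higher and 5 lower in ATRX_KO, and their summed counts ran from 148447 to 161341 in WT and from 104631 to 137259 in ATRX_KO. The defining markers AQP4, S100B, STMN2, OLIG1, CD3E, ITGAM, CDH5, VWF, CDH1, KRT5 and KRT14 of other cell types were at 3 counts or fewer in all 6 libraries. Other markers of these cell types were detected at low counts and moved with the groups. The summed counts of 5 astrocyte markers ran from 79 to 122 in WT and from 174 to 231 in ATRX_KO. Those of 5 listed neuron markers, without NEFL, which had no matched counts, ran from 73 to 101 and from 135 to 219. The summed counts of 4 listed endothelial markers, without PECAM1, which also had no matched counts, ran from 16 to 24 in WT and from 35 to 38 in ATRX_KO. Nearly all of these counts were of TEK, for which a difference was not called. The sums were lower in ATRX_KO for 5 oligodendrocyte markers, from 252 to 316 in WT and from 114 to 125 in ATRX_KO, and for 5 leukocyte markers, up to 393 in WT and from 207 to 291 in ATRX_KO, with no overlap. Those of 5 epithelial markers overlapped, from 20 to 36 in WT and from 18 to 24 in ATRX_KO. Among single markers ALDH1L1, SYP and SNAP25 were higher (log2 fold change 1.00, 1.12 and 1.04) and CD68 was lower (−0.53). The part of other cell types in the results was not tested. In bulk RNA, fewer cells with a transcript and less of it per cell cannot be told apart.

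The mRNA of the targeted gene was lower but present. ATRX (ENSG00000085224, chrX:76760358-77041719 on hg19) had 187, 193 and 196 CPM in WT and 87.5, 78.1 and 76.1 CPM in ATRX_KO (log2 fold change −1.25, SE 0.09, adjusted p = 9.38e-09). Every ATRX_KO library lay well under the lowest WT library. A 3′ tag measures transcripts that end at the normal site and does not show whether they encode the protein. DAXX, the partner of ATRX, had 33.8, 38.9 and 34 CPM in WT and 43.2, 45.3 and 45 CPM in ATRX_KO (log2 fold change 0.32, SE 0.09, adjusted p = 0.00998), a small rise in all 3 libraries. TERT and TERC, the catalytic subunit and the RNA of telomerase, which were chosen after their values were seen, overlapped between the groups. TERT had 21.7, 46.1 and 23.6 CPM in WT and 36, 22.3 and 19.7 CPM in ATRX_KO, with an adjusted p of 0.494, and the TERT transgene of the line cannot be separated from the endogenous gene by these counts. TERC had 4.74, 8.49 and 10.7 CPM in WT and 8.87, 4.85 and 5.64 CPM in ATRX_KO, with an adjusted p of 0.435.

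ATRX_KO differed from WT in a large share of the transcriptome. By edgeR's quasi-likelihood test at a Benjamini-Hochberg FDR of 0.05, 6846 genes (41.8% of those tested) were called, 3400 (20.8%) higher and 3446 (21%) lower in ATRX_KO. With a change of at least 2-fold, 1107 genes (6.76%) were higher and 1088 (6.65%) lower. The median log2 fold change over all tested genes was 0.02, and the median of its absolute value was 0.36. The WT and ATRX_KO libraries did not overlap for 50.9% of tested genes. The called share rose with expression, from 20.4% of genes under 1 CPM to 56.3% of those at 100 CPM or more, so a gene list is read below against 20.8% and 21% and with its own expression in mind. For the genes named below with their values, WT and ATRX_KO libraries did not overlap unless an overlap is stated, and adjusted p-values are those of this test over all 16371 genes.

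The largest changes were between counts at or near 0 and clear expression. Among the 10 protein-coding genes with the largest increase, PI3 (the secreted protease inhibitor elafin) had 0.0778, 0 and 0 CPM in WT and 13.8, 41.7 and 38.1 CPM in ATRX_KO, at least 126-fold higher when each WT library is set to the floor of 3 counts. MORC1, a germline chromatin ATPase, was at 0 in all 3 WT libraries and had 6.09, 4.02 and 5.24 CPM in ATRX_KO, at least 20.7-fold higher. DRICH1 was likewise at 0 in WT and had 5.48, 4.85 and 5.64 CPM in ATRX_KO. HSPA12A, an atypical member of the HSP70 family, went from 0.156, 0.0849 and 0.0847 CPM in WT to 9.31, 11.3 and 11.8 CPM in ATRX_KO, at least 43.6-fold. The zinc finger gene ZNF260 was at 1 or 2 counts in every WT library and had 9.83, 10 and 9.61 CPM in ATRX_KO, at least 39.7-fold. TMTC1, an O-mannosyltransferase of the endoplasmic reticulum, had 0.467, 0.34 and 0.678 CPM in WT and 29, 35.5 and 35.1 CPM in ATRX_KO (log2 fold change 6.04, SE 0.22, adjusted p = 2.33e-12). IL13RA2, the decoy receptor for IL-13 that is studied as a glioblastoma antigen, had 4.04, 5.69 and 5.08 CPM in WT and 288, 337 and 338 CPM in ATRX_KO (log2 fold change 6.03, SE 0.12, adjusted p = 1.37e-15). RAB43, which overlaps other transcripts at its locus, was at 0 in WT and had 6.35, 1.51 and 9.53 CPM in ATRX_KO, the widest spread of the 10. The other members, CSF3 and IL1B, are described with the cytokines below.

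**Figure D1:**
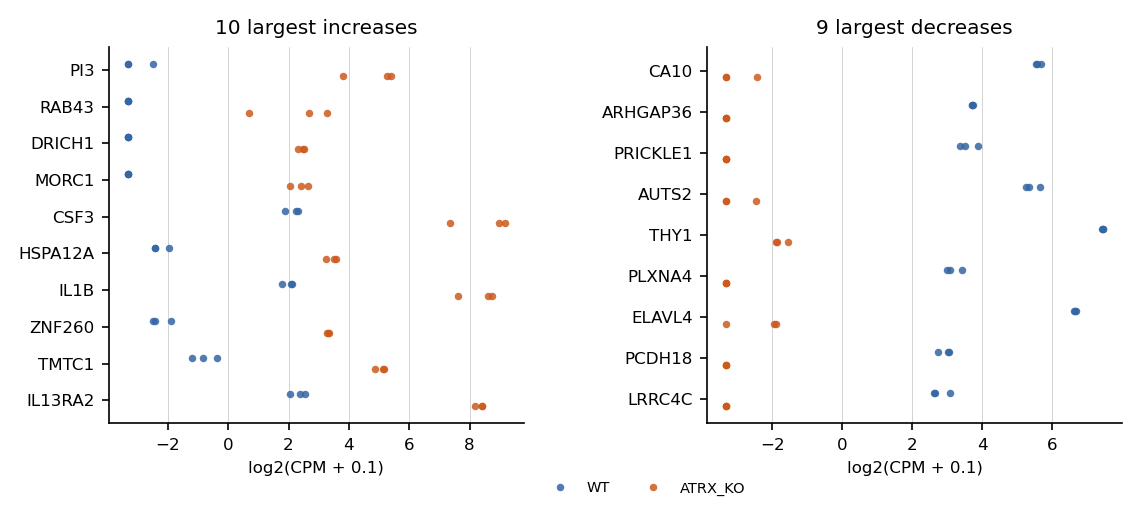
Expression of the 10 protein-coding genes with the largest increase (left) and the 9 with the largest decrease (right) in control cells, as log2(CPM + 0.1), 1 point per library for 3 WT (blue) and 3 ATRX_KO (orange) libraries. The groups do not overlap for any of the 19 genes, and the 9 genes that fell lie at or near the left edge, which stands for 0 counts, in ATRX_KO.

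The 9 largest decreases, chosen by their size, were in genes with varied roles. THY1, a surface glycoprotein of neurons and fibroblasts, had 175, 173 and 176 CPM in WT and 0.174, 0.167 and 0.238 CPM in ATRX_KO, at least 699-fold lower. ELAVL4, a neuronal RNA-binding protein, had 101, 99.2 and 103 CPM in WT and 0, 0.167 and 0.159 CPM in ATRX_KO, at least 404-fold lower. CA10, a carbonic anhydrase-related ligand of neurexins, had 46.1, 51 and 47.5 CPM in WT and 0 or 1 count in ATRX_KO, at least 193-fold lower. AUTS2, a nuclear regulator of neuronal development, had 37.7, 40 and 50 CPM in WT and also 0 or 1 count in ATRX_KO. All 3 ATRX_KO libraries were at 0 for the plexin PLXNA4, the planar polarity gene PRICKLE1, the protocadherin PCDH18, the synaptic adhesion gene LRRC4C and ARHGAP36, each of which had between 6.03 and 14.6 CPM in every WT library. For these 5 genes the lower bounds ran from 27.5-fold (LRRC4C) to 52.3-fold (ARHGAP36). In all, every WT library had 3 counts or fewer for 194 called genes, and every ATRX_KO library for 164.

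The 5 largest gains in mean CPM were in FTH1, TFPI2, MALAT1, FTL and SQSTM1. FTH1, the heavy chain of ferritin, had 2472, 2405 and 2324 CPM in WT and 9578, 9857 and 10679 CPM in ATRX_KO (log2 fold change 2.06, SE 0.07, adjusted p = 4.07e-13). FTL, its light chain, had 922, 902 and 914 CPM in WT and 3232, 3588 and 3445 CPM in ATRX_KO (log2 fold change 1.91, SE 0.06, adjusted p = 9.88e-13). FTH1 has many processed pseudogenes that could take part of its reads. TFPI2, an inhibitor of serine proteases of the matrix, had 602, 631 and 611 CPM in WT and 3286, 5205 and 6159.6 CPM in ATRX_KO. The nuclear noncoding RNA MALAT1 had 2016, 1886 and 1853 CPM in WT and 5044, 5646 and 5675 CPM in ATRX_KO. SQSTM1, the autophagy receptor p62, had 525, 522 and 487 CPM in WT and 1975, 2424 and 2393 CPM in ATRX_KO (log2 fold change 2.15, SE 0.08, adjusted p = 6.19e-12). All 3 ATRX_KO libraries stood above all 3 WT libraries for each of these 5 genes. The largest losses in CPM were in BCYRN1, LGALS1, PLAU, NUCKS1 and VIM. PLAU, the urokinase plasminogen activator, had 2660.3, 2283 and 2266 CPM in WT and 133, 87 and 139.8 CPM in ATRX_KO (log2 fold change −4.32, SE 0.15, adjusted p = 1.27e-12). LGALS1, the lectin galectin-1, had 3645, 4362 and 4093 CPM in WT and 1706, 1565 and 1546 CPM in ATRX_KO (log2 fold change −1.33, SE 0.08, adjusted p = 1.46e-09). BCYRN1, a noncoding RNA with Alu-like sequence that took 3.08% to 5.43% of the counts of a control library, overlapped between the groups and had 39377, 48238 and 56473 CPM in WT and 41488, 31109 and 35218 CPM in ATRX_KO (log2 fold change −0.42, adjusted p = 0.00743). Vimentin (VIM), the mesenchymal intermediate filament, had 5926, 5434 and 5462 CPM in WT and 3752, 3869.7 and 5371 CPM in ATRX_KO (log2 fold change −0.37, adjusted p = 0.0148), with the third ATRX_KO library close to WT.

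Gene lists written from general knowledge were used to describe which functions moved. Each is given by the number of its members tested, the numbers called in each direction and the median log2 fold change of the tested members, without a test of the list. The lists with large shares of members lower included MHC class II, mitosis, DNA replication, collagens, YAP targets, proteasome subunits and mitochondrial ribosomal proteins, and those with large shares higher included NF-kB genes, cytokines, lysosome and autophagy, NRF2 targets and cholesterol synthesis.

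**Figure D2:**
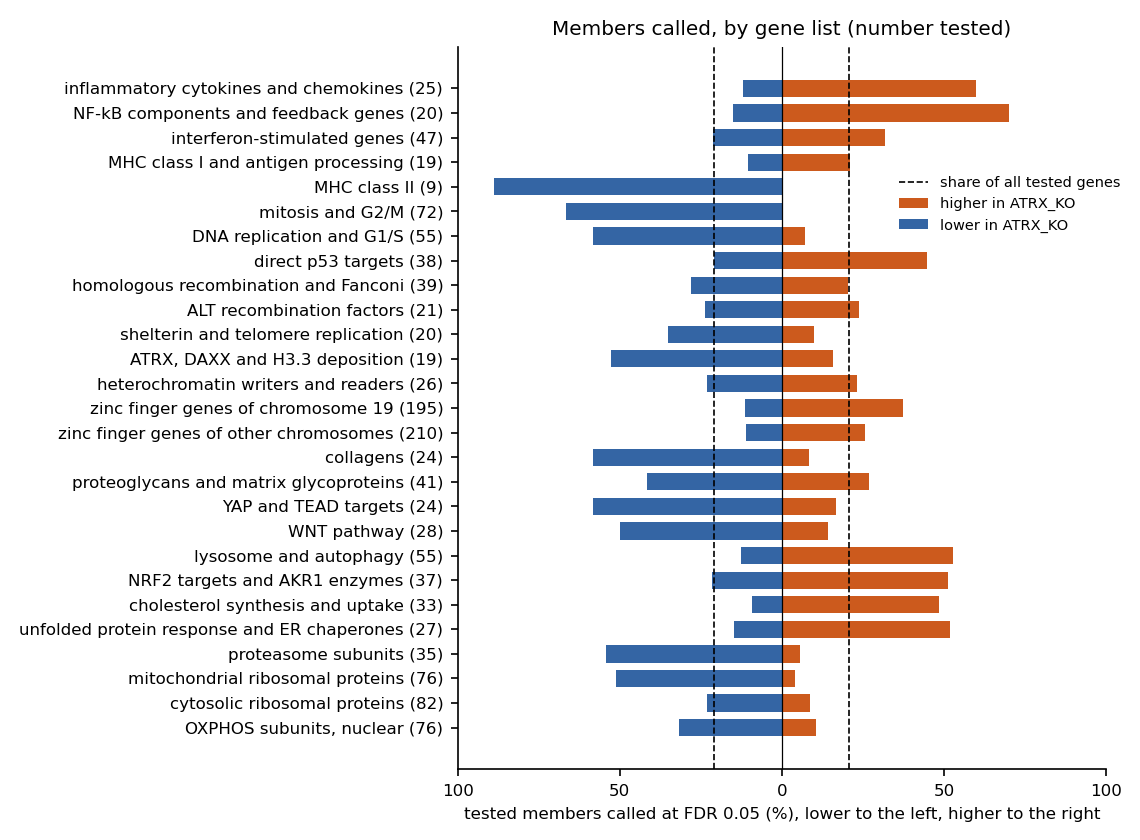
Percentage of the tested members of 27 gene lists called higher (orange, to the right) and lower (blue, to the left) in ATRX_KO control cells, with the number tested in parentheses. Dashed lines mark the shares of all tested genes, 20.8% higher and 21% lower, and MHC class II reaches 88.9% lower.

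Inflammatory cytokines and chemokines were among the most raised genes in untreated ATRX_KO cells. Of 40 genes listed, 25 passed the filter on counts, 15 were higher and 3 lower, with a median log2 fold change of 1.35. CSF3, the granulocyte colony-stimulating factor (chr17:38171614-38174066), had 3.58, 4.67 and 4.91 CPM in WT and 162, 574 and 503 CPM in ATRX_KO (log2 fold change 6.56, SE 0.39, adjusted p = 9.98e-10). IL1B, the interleukin 1-beta precursor (chr2:113587328-113594393), had 4.2, 4.16 and 3.3 CPM in WT and 198, 426 and 388 CPM in ATRX_KO (log2 fold change 6.43, SE 0.28, adjusted p = 3.00e-11). ATRX_KO replicate 1 was the lowest of its group for both genes and still stood far above every WT library. The neutrophil chemokines CXCL2 and CXCL8 followed the same order. CXCL2 had 0.389, 1.36 and 0.678 CPM in WT and 5.31, 15.8 and 22.5 CPM in ATRX_KO (log2 fold change 4.17, SE 0.48, adjusted p = 2.24e-06). CXCL8 had 1.87, 2.29 and 1.44 CPM in WT and 6.61, 25.8 and 51.7 CPM in ATRX_KO (log2 fold change 3.91, SE 0.59, adjusted p = 4.50e-05). Without ATRX_KO replicate 1, 15 members were higher and 2 lower, with a median of 1.63. Of the 12 members with at least 10 counts in every library, 9 were higher and 2 lower. Not every cytokine rose. CCL2, the monocyte chemokine, had 31.3, 28.2 and 29.5 CPM in WT and 2.7, 2.84 and 4.29 CPM in ATRX_KO (log2 fold change −3.17, SE 0.16, adjusted p = 1.34e-10). The epithelial alarmin TSLP had 28.9, 42.3 and 33.7 CPM in WT and 6.87, 4.6 and 7.79 CPM in ATRX_KO (log2 fold change −2.44, SE 0.17, adjusted p = 7.29e-09), both with no overlap.

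NF-kB is a transcription factor family that activates many cytokine genes, and its targets include its own inhibitors. Of 22 listed NF-kB components and feedback genes 20 were tested, 14 were higher and 3 lower, with a median of 0.76. The inducible cyclooxygenase PTGS2 had 1.09, 1.61 and 1.02 CPM in WT and 23.1, 53.9 and 77.8 CPM in ATRX_KO (log2 fold change 5.38, SE 0.43, adjusted p = 3.45e-08), again lowest in ATRX_KO replicate 1. TNFAIP3, the ubiquitin-editing inhibitor A20, had 2.02, 1.78 and 2.96 CPM in WT and 8.87, 17.3 and 19.1 CPM in ATRX_KO (log2 fold change 2.74, SE 0.26, adjusted p = 2.27e-07). RELB, a subunit of the noncanonical pathway, had 7.15, 4.67 and 8.72 CPM in WT and 23.7, 32.1 and 31.2 CPM in ATRX_KO (log2 fold change 2.08, adjusted p = 8.59e-08). The early response gene IER3 had 267, 264 and 254 CPM in WT and 698, 1065 and 934 CPM in ATRX_KO (log2 fold change 1.78, adjusted p = 2.86e-09). The 3 members that fell were the apoptosis inhibitor BIRC3 (log2 fold change −0.82), the atypical IkB protein BCL3 (−0.45) and the kinase subunit IKBKB (−0.44). In prostaglandin synthesis and signalling, 5 of 13 tested members were higher and 7 lower, and of the 7 with at least 10 counts in every library 1 was higher and 5 lower. The 3 with the largest increase were enzymes of the route to prostaglandin E2, namely PTGS2, the phospholipase PLA2G4A with 0.0778, 0.34 and 0.254 CPM in WT and 5.05, 6.19 and 6.12 CPM in ATRX_KO, and the synthase PTGES with 1.24, 0.255 and 0.508 CPM in WT and 5.48, 12.7 and 12.8 CPM in ATRX_KO. The prostaglandin E2 receptors PTGER4 and PTGER2 were lower (log2 fold change −1.35 and −1.02).

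**Figure D3:**
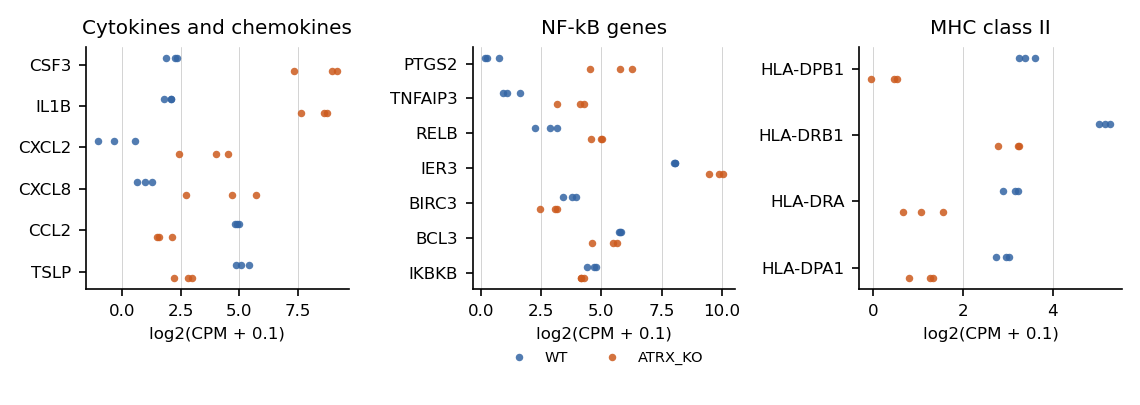
Expression of the named cytokine, NF-kB and MHC class II genes in control cells, as log2(CPM + 0.1), 1 point per library for 3 WT (blue) and 3 ATRX_KO (orange) libraries. CSF3, IL1B and PTGS2 are higher in every ATRX_KO library by several log2 units, while the 4 MHC class II genes and CCL2 are lower in every ATRX_KO library.

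Interferon-stimulated genes moved in both directions. Of 47 tested, 15 were higher and 10 lower, with a median of 0.26. IFI44L had 10.3, 12 and 11.2 CPM in WT and 64.8, 66.6 and 84.1 CPM in ATRX_KO (log2 fold change 2.69, SE 0.11, adjusted p = 1.53e-11), and the PARP family member PARP14 and the ubiquitin ligase HERC6 rose by 1.55 and 1.72 on the log2 scale. The membrane restriction factors IFITM2 and IFITM3 and the deconjugating enzyme USP18 went the other way, with USP18 at 12.8, 12.2 and 10.1 CPM in WT and 2.35, 2.34 and 2.7 CPM in ATRX_KO (log2 fold change −2.24, SE 0.22, adjusted p = 3.43e-07). Of 19 tested genes of MHC class I and antigen processing, 4 were higher and 2 lower, with a median of 0.07. HLA-E, a ligand of NK cell receptors, had 43.8, 53.2 and 53.5 CPM in WT and 84.6, 92.3 and 86.9 CPM in ATRX_KO (log2 fold change 0.81, adjusted p = 1.10e-06).

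MHC class II genes, which present peptides to CD4+ T cells and are expressed by some glioma lines, were lower almost throughout. Of 10 genes listed 9 were tested, 0 were higher and 8 lower, with a median of −1.99, or −1.79 with the 1 gene at the counting floor set to its bound. HLA-DPB1 (chr6:33043767-33057473) had 9.49, 10.4 and 12.1 CPM in WT and 0.87, 1.34 and 1.27 CPM in ATRX_KO (log2 fold change −3.18, SE 0.22, adjusted p = 5.53e-09). HLA-DRB1, whose reads can be shared with near-identical DRB genes, had 35.8, 38.7 and 32.9 CPM in WT and 9.31, 9.37 and 6.75 CPM in ATRX_KO (log2 fold change −2.08, SE 0.12, adjusted p = 8.07e-10). HLA-DRA and HLA-DPA1, alpha chains of this class, were also lower (log2 fold change −1.99 and −1.79). No WT library overlapped an ATRX_KO library for any of these 4 genes.

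Genes of mitosis and G2/M moved in 1 direction. All 72 listed genes were tested, 0 were higher and 48 (66.7%) lower, although the falls were moderate, with a median of −0.32. NEK2, a centrosomal kinase, had 150.5, 154 and 152 CPM in WT and 46.8, 45.3 and 61.4 CPM in ATRX_KO (log2 fold change −1.57, SE 0.11, adjusted p = 1.16e-08). UBE2S, the E2 enzyme that elongates chains for the anaphase-promoting complex, had 1575, 1602 and 1546 CPM in WT and 556, 571 and 532 CPM in ATRX_KO (log2 fold change −1.51, SE 0.07, adjusted p = 6.38e-11). The kinesin KIF20A, needed for cytokinesis, had 96, 86.8 and 91 CPM in WT and 38.8, 44.2 and 46 CPM in ATRX_KO (log2 fold change −1.09, adjusted p = 2.77e-07). Survivin (BIRC5) had 677, 736 and 683 CPM in WT and 357, 365 and 357 CPM in ATRX_KO (log2 fold change −0.96, adjusted p = 5.52e-09). In 3 cases the promoter is shown, because these genes were, among members with the CHR element, those with the largest falls. ANLN, an actin-binding protein of the contractile ring, had 367, 331 and 326 CPM in WT and 157, 168 and 221 CPM in ATRX_KO (log2 fold change −0.91, SE 0.13, adjusted p = 1.88e-05). MAD2L1 of the spindle checkpoint had 50.5, 49.1 and 45 CPM in WT and 24.2, 25 and 30.4 CPM in ATRX_KO (log2 fold change −0.86, SE 0.16, adjusted p = 0.000356). CDC20, the activator of the anaphase-promoting complex, had 506, 502 and 499 CPM in WT and 277, 266 and 328 CPM in ATRX_KO (log2 fold change −0.79, SE 0.11, adjusted p = 1.31e-05). The groups were apart for all 3. MKI67, looked up after its values were seen, did not pass, with 677, 662 and 648 CPM in WT and 663, 703 and 592 CPM in ATRX_KO (log2 fold change −0.02, adjusted p = 0.885).

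Many mitotic promoters carry the CHR (TTTGAA), which the DREAM and MuvB complexes bind, and CCAAT boxes, which NF-Y binds. The promoters below are RefSeq sequences on GRCh38.p14, from 250 bases before to 50 bases after the annotated start, 5′ to 3′ on the gene's strand, with each CHR on either strand in capitals (adjoining copies run together). ANLN lies at chr7:36389612-36389911 on the plus strand, MAD2L1 at chr4:120066799-120067098 on the minus strand and CDC20 at chr1:43358731-43359030 on the plus strand.
ANLN: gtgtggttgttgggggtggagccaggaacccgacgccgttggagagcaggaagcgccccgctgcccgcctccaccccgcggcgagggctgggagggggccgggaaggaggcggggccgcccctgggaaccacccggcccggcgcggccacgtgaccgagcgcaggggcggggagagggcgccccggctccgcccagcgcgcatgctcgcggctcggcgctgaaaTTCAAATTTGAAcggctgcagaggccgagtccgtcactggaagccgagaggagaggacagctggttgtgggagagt
MAD2L1: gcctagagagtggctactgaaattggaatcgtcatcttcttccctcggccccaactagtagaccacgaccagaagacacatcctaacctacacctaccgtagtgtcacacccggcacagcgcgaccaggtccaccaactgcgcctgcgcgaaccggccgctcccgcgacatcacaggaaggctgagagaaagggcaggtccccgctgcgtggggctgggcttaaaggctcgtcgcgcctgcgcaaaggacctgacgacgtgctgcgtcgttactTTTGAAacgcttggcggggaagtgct
CDC20: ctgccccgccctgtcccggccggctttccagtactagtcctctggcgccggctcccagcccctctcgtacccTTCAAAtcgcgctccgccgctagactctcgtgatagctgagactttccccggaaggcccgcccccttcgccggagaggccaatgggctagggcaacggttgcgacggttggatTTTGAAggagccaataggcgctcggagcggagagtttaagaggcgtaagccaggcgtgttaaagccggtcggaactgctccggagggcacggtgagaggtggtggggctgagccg
A promoter was matched for 63 of the 72 mitotic genes, and 40 of these (63.5%) held a CHR, against 10.2% of the 11203 matched promoters of tested genes and 15.4% of all 27305 promoters in the table. The CHR was in 23 of the 42 matched promoters (54.8%) of members that fell, a smaller share than the 63.5% of the whole list. CCAAT on either strand was in 71.4% of the mitotic promoters and 36.7% of those of tested genes. Across all genes the CHR was about as frequent in promoters of genes that rose (9.96%) as in those of genes that fell (11.5%). A match is the presence of these letters in this window and no evidence of binding.

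DNA replication and G1/S genes followed. Of 56 listed genes 55 were tested, 4 were higher and 32 lower, with a median of −0.35. CDK6, the G1 kinase, had 139, 144 and 139 CPM in WT and 42.7, 37.9 and 48 CPM in ATRX_KO (log2 fold change −1.71, SE 0.09, adjusted p = 2.65e-10). The helicase subunit GINS4 had 116, 127 and 112 CPM in WT and 41.4, 36.6 and 39.5 CPM in ATRX_KO (log2 fold change −1.59, adjusted p = 1.40e-10). The helicase cofactor CDC45 had 53.5, 47.6 and 44.1 CPM in WT and 20.3, 20.9 and 22.4 CPM in ATRX_KO (log2 fold change −1.19, adjusted p = 5.45e-07). Cyclin E1 (CCNE1) was an exception that rose, with 12.3, 13.7 and 12.4 CPM in WT and 25.2, 21.7 and 19.5 CPM in ATRX_KO (log2 fold change 0.79, adjusted p = 0.000513), as did CDK4 by a small amount (log2 fold change 0.20). The E2F letters TTTGGCGC were in 22.2% of the 45 matched promoters of this list and in 1.03% of those of tested genes, and TTTCGCGC in 11.1% and 1.0%.

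Direct targets of p53 leaned upward in control cells. Of 38 tested, 17 were higher and 8 lower, with a median of 0.27. GDF15, a stress-induced secreted cytokine (chr19:18485541-18499986), had 12.5, 12.7 and 12.9 CPM in WT and 75, 88.7 and 88 CPM in ATRX_KO (log2 fold change 2.72, SE 0.09, adjusted p = 1.07e-12). The proapoptotic BH3-only gene BBC3 (PUMA) had 11.2, 9.76 and 10.4 CPM in WT and 23.1, 24 and 24.9 CPM in ATRX_KO (log2 fold change 1.20, adjusted p = 6.06e-08). TP53INP1, which links p53 to autophagy and cell death, had 4.12, 5.6 and 5.08 CPM in WT and 12, 12.5 and 11.2 CPM in ATRX_KO (log2 fold change 1.27, adjusted p = 5.82e-07). PPM1D, the phosphatase that turns p53 signalling off, had 17.8, 17.9 and 15 CPM in WT and 7.39, 9.45 and 10.7 CPM in ATRX_KO (log2 fold change −0.88, adjusted p = 2.48e-05). CDKN1A, the CDK inhibitor p21, was looked up after its values were seen and had 157, 158 and 162 CPM in WT and 227, 213 and 197 CPM in ATRX_KO (log2 fold change 0.42, adjusted p = 9.16e-05). With etoposide, 1 member was higher and 29 were lower in ATRX_KO than in WT, beside 23% and 22.9% of all tested genes, with a median of −0.71, and 12 of the 17 genes higher in control cells were lower there. For GDF15 the knockout effect with etoposide differed from that in control by −2.64 on the log2 scale (adjusted p = 1.09e-09, in a test of the difference that called 16% of genes), and for BBC3 by −1.41 (adjusted p = 4.09e-06).

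In the machinery that ATRX works with, 3 of 19 tested members were higher and 10 lower, with a median of −0.30. Besides ATRX, H3-3A, a gene for H3.3 itself, had 1238, 1285 and 1271 CPM in WT and 595, 594 and 717 CPM in ATRX_KO (log2 fold change −0.99, SE 0.10, adjusted p = 8.08e-07). The histone chaperone ASF1A had 25.4, 26.3 and 21.1 CPM in WT and 10.3, 11.3 and 14.5 CPM in ATRX_KO (log2 fold change −1.01, adjusted p = 1.35e-05), and CHAF1B, a subunit of the replication-coupled chaperone CAF-1, had 24.2, 25.7 and 20.8 CPM in WT and 12.1, 14.2 and 12.4 CPM in ATRX_KO (log2 fold change −0.87, adjusted p = 3.29e-05). UBN2, a subunit of the HIRA complex that deposits H3.3 elsewhere, had 37.1, 40.6 and 42.4 CPM in WT and 63, 60.2 and 57.9 CPM in ATRX_KO (log2 fold change 0.59, adjusted p = 0.000118). Heterochromatin writers and readers were balanced, with 6 higher and 6 lower of 26. TRIM28 (KAP1), the corepressor that zinc finger proteins recruit to retroelements, had 264, 247 and 277 CPM in WT and 119.5, 90.9 and 123 CPM in ATRX_KO (log2 fold change −1.24, SE 0.10, adjusted p = 4.57e-08). The HP1 partner LRIF1 had 5.83, 7.38 and 6.69 CPM in WT and 19.1, 19.2 and 17.4 CPM in ATRX_KO (log2 fold change 1.48, SE 0.12, adjusted p = 5.98e-08) and the HUSH subunit MPHOSPH8 rose by 0.71. Among genes of PML bodies and SUMO, 6 of 23 were higher and 9 lower.

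Among genes of telomere maintenance, shelterin and telomere replication genes were lower more often than higher, while factors tied to ALT recombination were balanced. Of 20 tested shelterin and telomere replication genes, 2 were higher and 7 lower, with a median of −0.19. PINX1, a telomerase inhibitor, had 36.9, 42.4 and 38.8 CPM in WT and 16.3, 16.9 and 17.5 CPM in ATRX_KO (log2 fold change −1.22, SE 0.11, adjusted p = 9.12e-08). WRAP53, which brings telomerase RNA to Cajal bodies, had 5.83, 8.74 and 7.2 CPM in WT and 2.7, 2.18 and 2.46 CPM in ATRX_KO (log2 fold change −1.56, adjusted p = 1.58e-05). Of 21 factors tied to ALT recombination, 5 were higher and 5 lower. The nuclease MRE11 had 15, 16.4 and 18 CPM in WT and 24, 27.3 and 24.2 CPM in ATRX_KO (log2 fold change 0.61, adjusted p = 0.000267). The SUMO ligase NSMCE2 of the SMC5/6 complex had 36.7, 31.3 and 28.5 CPM in WT and 14.5, 18.4 and 18.3 CPM in ATRX_KO (log2 fold change −0.91, adjusted p = 2.21e-05), while SMC5 and SMC6 themselves rose by 0.31 and 0.25. Of 39 genes of homologous recombination and the Fanconi pathway, 8 were higher and 11 lower. TP53BP1, which favours end joining, had 54, 59.5 and 54.3 CPM in WT and 102, 106 and 108 CPM in ATRX_KO (log2 fold change 0.91, adjusted p = 6.13e-08). UBE2T, the E2 enzyme of the Fanconi pathway, had 166, 175 and 161 CPM in WT and 60.7, 61.7 and 74.4 CPM in ATRX_KO (log2 fold change −1.35, adjusted p = 1.26e-08).

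Genes known from ATRX syndrome and from imprinting were looked at by list. At the alpha-globin locus of 16p13.3, 9 of 17 genes were tested, and 0 were higher and 2 (22.2%) lower. That share is close to the 21% of all tested genes that were lower. The 2 were SNRNP25 with 29.2, 26.7 and 32.1 CPM in WT and 21.7, 23.7 and 23.3 CPM in ATRX_KO (log2 fold change −0.36, adjusted p = 0.00715) and LUC7L with 27.1, 28.8 and 28.2 CPM in WT and 21.2, 25.1 and 24.1 CPM in ATRX_KO (log2 fold change −0.25, adjusted p = 0.0494). Leaving out 1 control library at a time gave 1 to 3 members lower, with 1 left without any of the WT libraries or the first ATRX_KO library and 3 without the second ATRX_KO library. Of 28 tested imprinted genes, 7 were higher and 7 lower. DIRAS3, a maternally imprinted growth suppressor, had 18.1, 22 and 19.5 CPM in WT and 0.87, 0.669 and 0.556 CPM in ATRX_KO (log2 fold change −4.82, SE 0.27, adjusted p = 5.57e-10). MEST had 27, 21.6 and 22.8 CPM in WT and 3.13, 1.59 and 2.78 CPM in ATRX_KO (log2 fold change −3.25, SE 0.21, adjusted p = 3.12e-09). PLAGL1, the zinc finger regulator of an imprinted network, went from 0.778, 0.679 and 0.423 CPM in WT to 7.92, 7.7 and 10.7 CPM in ATRX_KO (log2 fold change 3.78, SE 0.36, adjusted p = 2.50e-07). Of 22 tested genes derived from or controlling retroelements, 3 were higher and 9 lower. The RNA helicase MOV10 had 12.4, 13.6 and 12.9 CPM in WT and 37.6, 38.8 and 34.6 CPM in ATRX_KO (log2 fold change 1.51, adjusted p = 5.04e-08). The cytidine deaminase APOBEC3C had 155, 157 and 171 CPM in WT and 68.4, 76.9 and 62 CPM in ATRX_KO (log2 fold change −1.22, adjusted p = 4.74e-09).

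Zinc finger genes, whose clusters on chromosome 19 are bound by ATRX in other cells, were higher more often than lower. Of 247 listed zinc finger genes of chromosome 19, 195 were tested, 73 (37.4%) were higher and 22 (11.3%) lower, with a median of 0.37, and 48 rose by at least 2-fold. Of 210 tested zinc finger genes of other chromosomes, 54 were higher and 23 lower, with a median of 0.11. Several were near 0 in WT. ZNF569 had 0.311, 0.255 and 0.0847 CPM in WT and 11.7, 11.3 and 8.82 CPM in ATRX_KO, ZNF528 had 0.0778, 0.34 and 0 CPM in WT and 4.87, 6.69 and 6.28 CPM in ATRX_KO, and ZNF486 had 0.233, 0.0849 and 0 CPM in WT and 5.48, 6.02 and 5.64 CPM in ATRX_KO, and ZNF260 is given above. Among zinc finger genes of chromosome 19 with at least 10 counts in every library, 36 of 122 were higher and 21 lower, with a median of 0.16. ZNF17 and ZNF749, at the end of the long arm, fell by 1.06 and 1.22 on the log2 scale.

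Some families of development and chromatin genes leaned 1 way. Of 8 tested MAGE genes 7 were higher and 0 lower, with a median of 1.15. MAGED1 had 97.1, 98.5 and 104 CPM in WT and 363, 340.0 and 306 CPM in ATRX_KO (log2 fold change 1.75, SE 0.12, adjusted p = 6.72e-09), MAGED2 had 16, 15.3 and 14.5 CPM in WT and 31.3, 31 and 27.7 CPM in ATRX_KO, and MAGED4B had 27.2, 23.2 and 28.3 CPM in WT and 74.8, 68 and 61.7 CPM in ATRX_KO, the last with a near-identical copy, MAGED4. Of 8 tested SOX factors, 0 were higher and 4 lower, with a median of −1.04. SOX4 had 322, 328 and 368 CPM in WT and 69.2, 75.6 and 71.5 CPM in ATRX_KO (log2 fold change −2.23, SE 0.09, adjusted p = 1.30e-11) and SOX9, a regulator of glial stem cells, had 162, 142 and 149.6 CPM in WT and 53.3, 42.7 and 67.2 CPM in ATRX_KO (log2 fold change −1.47, SE 0.13, adjusted p = 1.10e-07). In the HOXA cluster 4 of 6 tested genes were higher (1 of 3 with at least 10 counts in every library), with HOXA5 at 1.32, 1.87 and 1.27 CPM in WT and 6.87, 9.2 and 8.9 CPM in ATRX_KO (log2 fold change 2.48, SE 0.20, adjusted p = 3.45e-08), while in the HOXB cluster 4 of 7 were lower, with HOXB4 at 40.7, 41.2 and 38.2 CPM in WT and 20.3, 19.2 and 24 CPM in ATRX_KO (log2 fold change −0.92, adjusted p = 3.35e-05). The HOXB genes lie on chromosome 17, and once each gene was centred on its neighbours 1 was higher and 1 lower. Of 19 tested clustered histone genes, 4 were higher and 10 lower, with a median of −0.61, and the polyadenylated transcripts of H2BC12 had 65.8, 60.9 and 69.5 CPM in WT and 162, 186 and 219 CPM in ATRX_KO (log2 fold change 1.53, adjusted p = 1.71e-08). Among 24 tested neural stem, glial and neuronal markers, 5 were higher and 8 lower. UCHL1, a neuronal ubiquitin hydrolase, had 182, 176 and 178 CPM in WT and 499, 478 and 557 CPM in ATRX_KO (log2 fold change 1.52, SE 0.08, adjusted p = 1.36e-10), RTN1, a reticulon of neuroendocrine cells, had 1.94, 1.53 and 2.46 CPM in WT and 25.9, 30.6 and 27.2 CPM in ATRX_KO (log2 fold change 3.81, SE 0.18, adjusted p = 7.75e-11). The myelin gene MBP had 20.1, 22.7 and 17 CPM in WT and 6.26, 5.44 and 5.4 CPM in ATRX_KO (log2 fold change −1.81, adjusted p = 2.42e-08).

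Lists of extracellular matrix genes moved in both directions. Of 24 tested collagens, 2 were higher and 14 lower, with a median of −0.70, and of 41 tested proteoglycans and matrix glycoproteins, 11 were higher and 17 lower. Of 9 tested laminins, which build basement membranes, 5 were higher and 1 lower, with a median of 0.49, among them LAMA4 (log2 fold change 0.90). COL1A1, a chain of fibrillar collagen I (chr17:48261462-48278993), had 483, 399 and 426 CPM in WT and 125, 138 and 116 CPM in ATRX_KO (log2 fold change −1.79, SE 0.14, adjusted p = 2.11e-08). COL1A2, the other chain of the same fibril, had 136, 126 and 123 CPM in WT and 222, 232 and 246 CPM in ATRX_KO (log2 fold change 0.86, SE 0.10, adjusted p = 3.77e-06). COL6A3 had 534, 485 and 509 CPM in WT and 212, 172 and 179 CPM in ATRX_KO (log2 fold change −1.44, adjusted p = 3.41e-09). THBS1, the antiangiogenic thrombospondin-1 (chr15:39873280-39891667), had 116, 94.9 and 98.1 CPM in WT and 2.78, 2.34 and 2.78 CPM in ATRX_KO (log2 fold change −5.28, SE 0.13, adjusted p = 2.46e-14). The elastic fibre protein EFEMP1 had 6.3, 7.55 and 4.15 CPM in WT and 0, 0.335 and 0.159 CPM in ATRX_KO (log2 fold change −5.09, adjusted p = 1.54e-07). Matrix proteases and their inhibitors moved in both directions. Of 12 ADAMTS genes, 7 were higher and 2 lower, and the aggrecanase ADAMTS5 had 1.71, 2.04 and 2.03 CPM in WT and 71.7, 81.7 and 82.4 CPM in ATRX_KO (log2 fold change 5.35, SE 0.12, adjusted p = 8.24e-15). TIMP1, an inhibitor of metalloproteinases, had 370.1, 493 and 563 CPM in WT and 1667, 1743 and 1669 CPM in ATRX_KO (log2 fold change 1.83, SE 0.11, adjusted p = 1.26e-09). TIMP3 had 72.6, 61.1 and 60.2 CPM in WT and 24, 24.9 and 24.8 CPM in ATRX_KO (log2 fold change −1.40, SE 0.11, adjusted p = 1.98e-08). Of 13 serpins 7 were higher and 1 lower, with SERPINB2 (plasminogen activator inhibitor 2) at 7.78, 7.64 and 5.34 CPM in WT and 68.5, 58.1 and 63.1 CPM in ATRX_KO (log2 fold change 3.19, SE 0.17, adjusted p = 2.37e-10).

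Several signalling outputs were lower. Of 24 tested YAP and TEAD targets, 4 were higher and 14 lower, with a median of −0.34. CCN2 (connective tissue growth factor) had 191, 152 and 159.7 CPM in WT and 46, 31.7 and 47.2 CPM in ATRX_KO (log2 fold change −2.01, SE 0.15, adjusted p = 2.19e-08), the receptor kinase AXL had 684, 663 and 675 CPM in WT and 349, 313 and 307 CPM in ATRX_KO (log2 fold change −1.06, adjusted p = 1.93e-09), and CCN1, the close relative of CCN2, had 24.5, 23.5 and 24.1 CPM in WT and 50.2, 58.8 and 69.4 CPM in ATRX_KO (log2 fold change 1.31, adjusted p = 9.03e-08) and thus went the other way. In the WNT pathway 4 of 28 were higher and 14 lower, with a median of −0.39. The receptor FZD7 had 37.6, 38.8 and 41.1 CPM in WT and 1.57, 0.92 and 1.75 CPM in ATRX_KO (log2 fold change −4.78, SE 0.20, adjusted p = 1.88e-11), and the ligands WNT5B and WNT7B fell by 3.22 and 1.58 on the log2 scale. In the TGF-beta and BMP pathway, with 7 of 34 higher and 13 lower, the BMP antagonist GREM1 had 114, 110.4 and 108 CPM in WT and 309, 252 and 290.5 CPM in ATRX_KO (log2 fold change 1.36, adjusted p = 4.66e-10) and ID1, a direct BMP target, had 633, 607 and 594 CPM in WT and 296, 155 and 191 CPM in ATRX_KO (log2 fold change −1.52, adjusted p = 5.81e-07). In the NOTCH pathway, with 5 of 18 higher and 7 lower, the receptor NOTCH2 and the inhibitor NUMB rose, while the targets HES1 and HEY1 fell by 1.37 and 1.97. DUSP6, the feedback phosphatase of ERK, had 32.2, 28.4 and 28.7 CPM in WT and 146, 162 and 174 CPM in ATRX_KO (log2 fold change 2.43, SE 0.09, adjusted p = 2.30e-12) and EGR1, an immediate early factor, had 17.1, 13.8 and 16.6 CPM in WT and 88, 70.3 and 75.7 CPM in ATRX_KO (log2 fold change 2.30, SE 0.11, adjusted p = 4.45e-11), but DUSP4 had 65.5, 58.7 and 59.1 CPM in WT and 8.7, 8.7 and 11.7 CPM in ATRX_KO (log2 fold change −2.65, SE 0.13, adjusted p = 9.29e-11), and 10 of 29 genes of that list were higher and 10 lower. Among 19 genes of the IGF axis, 9 were higher and 7 lower. The binding proteins IGFBP1, IGFBP2, IGFBP3 and IGFBP7 fell, IGFBP3 from 39.4, 48.6 and 32.6 CPM to 4.09, 2.76 and 3.81 CPM, and PAPPA, the protease that cleaves several of them, had 66.2, 69.9 and 72 CPM in WT and 185, 297 and 247 CPM in ATRX_KO (log2 fold change 1.81, adjusted p = 2.89e-08). Semaphorins, ephrins and guidance genes were lower in 19 of 38 and higher in 10, with SEMA3A at 119.7, 121 and 121 CPM in WT and 15.7, 17.5 and 15.8 CPM in ATRX_KO (log2 fold change −2.88, SE 0.09, adjusted p = 5.60e-13).

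Adhesion and cytoskeletal genes changed in both directions within families. Of 21 tested integrins 5 were higher and 5 lower. ITGAX, the alpha chain of a leukocyte integrin, had 0.156, 0.0849 and 0.339 CPM in WT and 5.31, 6.78 and 5.16 CPM in ATRX_KO (log2 fold change 4.83, SE 0.32, adjusted p = 3.91e-09). ITGB3, the beta chain of the vitronectin receptor, had 3.81, 3.4 and 4.4 CPM in WT and 14.4, 14.9 and 17.6 CPM in ATRX_KO (log2 fold change 2.01, adjusted p = 1.46e-08), whereas ITGA6, the alpha chain of laminin receptors, had 12.7, 11.4 and 12.1 CPM in WT and 1.74, 1.76 and 0.477 CPM in ATRX_KO (log2 fold change −3.19, SE 0.35, adjusted p = 1.20e-06). Of 11 tested cadherins 2 were higher and 3 lower, and CDH6 went from 21.5, 22.7 and 21.3 CPM in WT to 0, 0.167 and 0 CPM in ATRX_KO. Nonmuscle myosin heavy chains moved in opposite directions. MYH10 had 0.233, 0.34 and 1.1 CPM in WT and 5.65, 6.02 and 4.77 CPM in ATRX_KO (log2 fold change 3.29, SE 0.37, adjusted p = 1.96e-06), and MYH9 had 823, 753 and 761 CPM in WT and 338, 381 and 383 CPM in ATRX_KO (log2 fold change −1.08, SE 0.08, adjusted p = 7.78e-09), in a family with 11 of 23 higher and 6 lower. Of 35 tested genes of the contractile and actin cytoskeleton 7 were higher and 15 lower, with the actin-binding proteins CNN3 and PFN1 at −1.89 and −1.24 on the log2 scale. Of 11 tested tubulins 1 was higher and 6 lower, with the neuronal beta tubulin TUBB3 at 671, 656 and 638 CPM in WT and 374, 356 and 374 CPM in ATRX_KO (log2 fold change −0.83, adjusted p = 7.52e-08). Among 17 tested epithelial and EMT markers, 5 were higher and 8 lower, and the paired repressors ZEB1 and ZEB2 went opposite ways (log2 fold change −0.79 and 0.78).

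Transporters and channels were called in both directions at about the background shares. Of 206 tested SLC transporters 49 were higher and 47 lower, with a median of 0.03. The urea transporter SLC14A1 had 60.9, 60.5 and 57.7 CPM in WT and 1.83, 1.34 and 1.03 CPM in ATRX_KO (log2 fold change −5.41, SE 0.15, adjusted p = 5.29e-14), and the lactate exporter SLC16A3 had 126, 139.7 and 163 CPM in WT and 37.1, 42.2 and 44.4 CPM in ATRX_KO (log2 fold change −1.79, adjusted p = 1.24e-09). SLC25A4, the ADP and ATP carrier of muscle and brain mitochondria, had 8.4, 11.4 and 9.23 CPM in WT and 0.348, 0.502 and 0.953 CPM in ATRX_KO (log2 fold change −3.96, SE 0.28, adjusted p = 6.66e-09). Of 27 tested potassium channels 6 were higher and 6 lower. The inward rectifier KCNJ2 had 8.17, 7.81 and 7.62 CPM in WT and 0.609, 0.753 and 0.795 CPM in ATRX_KO (log2 fold change −3.43, SE 0.24, adjusted p = 7.49e-09), while the background channel KCNK6 had 0.855, 1.02 and 0.423 CPM in WT and 10.4, 8.37 and 8.1 CPM in ATRX_KO (log2 fold change 3.53, SE 0.26, adjusted p = 1.61e-08). Of 26 glycolysis genes 5 were higher and 9 lower, with small changes beside SLC16A3, such as 0.76 on the log2 scale for the hexokinase HK2 and −0.44 for the lactate dehydrogenase LDHA.

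The lists for lysosome and autophagy, cholesterol, fatty acids, NRF2 targets, the unfolded protein response and hypoxia had more members higher than lower, and the heat shock proteins did not. Of 55 tested genes of lysosome and autophagy, 29 (52.7%) were higher and 7 (12.7%) lower, with a median of 0.36. Besides SQSTM1, the cathepsin CTSL had 97.8, 91.3 and 81.4 CPM in WT and 204, 204 and 284 CPM in ATRX_KO (log2 fold change 1.36, adjusted p = 7.97e-08), the sphingolipid activator precursor PSAP had 313, 330.0 and 354 CPM in WT and 875, 877 and 792 CPM in ATRX_KO (log2 fold change 1.35, adjusted p = 2.67e-08). The autophagosome gene GABARAPL1 had 8.4, 8.06 and 7.54 CPM in WT and 19.7, 24.3 and 29.2 CPM in ATRX_KO (log2 fold change 1.61, adjusted p = 2.86e-08). The cathepsins CTSB and CTSZ fell by 0.56 and 1.52. Of 33 tested genes of cholesterol synthesis and uptake, 16 were higher and 3 lower, with a median of 0.45. SREBF2, the master regulator of the pathway, had 10, 10.2 and 8.55 CPM in WT and 39.8, 61.2 and 48.4 CPM in ATRX_KO (log2 fold change 2.38, SE 0.16, adjusted p = 3.51e-09), DHCR7, a late enzyme of synthesis, had 4.59, 4.75 and 6.18 CPM in WT and 20.2, 19.1 and 24.9 CPM in ATRX_KO (log2 fold change 2.05, adjusted p = 1.35e-08). The efflux pump ABCA1 had 27.1, 34.5 and 34.5 CPM in WT and 73.2, 107 and 130.2 CPM in ATRX_KO (log2 fold change 1.70, adjusted p = 1.54e-07). Of 31 fatty acid genes 14 were higher and 5 lower, with the desaturase SCD at 102, 99.7 and 101 CPM in WT and 142, 313 and 289.8 CPM in ATRX_KO (log2 fold change 1.30, adjusted p = 5.48e-05). Of 37 tested NRF2 targets and AKR1 enzymes 19 were higher and 8 lower, with a median of 0.48. AKR1C1, a ketosteroid reductase, had 2.8, 3.31 and 2.2 CPM in WT and 28.3, 25.6 and 28.4 CPM in ATRX_KO (log2 fold change 3.3, SE 0.18, adjusted p = 3.14e-10). Heme oxygenase 1 (HMOX1) had 48.8, 43.1 and 37.6 CPM in WT and 179, 126 and 151 CPM in ATRX_KO (log2 fold change 1.81, SE 0.12, adjusted p = 3.63e-09). The carbonyl reductases CBR1 and CBR3, both on chromosome 21, were lower. Of 26 tested heat shock proteins 3 were higher and 7 lower, with a median of 0.01. In the unfolded protein response 14 of 27 were higher and 4 lower, with small changes, and among hypoxia targets 11 of 25 were higher and 4 lower, with VEGFA at 93.1, 84 and 82.6 CPM in WT and 162, 181 and 236 CPM in ATRX_KO (log2 fold change 1.16, adjusted p = 3.09e-07) and CA9 at 11.1, 12.9 and 10.3 CPM in WT and 1.04, 2.43 and 7.87 CPM in ATRX_KO. CEBPB, a factor of the stress and acute phase responses listed with ATF4 genes, had 61.5, 56.4 and 55.7 CPM in WT and 211, 264 and 319 CPM in ATRX_KO (log2 fold change 2.19, SE 0.12, adjusted p = 3.88e-10), in a list with 14 of 36 higher and 8 lower.

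Mitochondrial ribosomal proteins, proteasome subunits and OXPHOS subunits were lower more often than higher, by small amounts. Of 76 mitochondrial ribosomal proteins, 3 were higher and 39 (51.3%) lower, with a median of −0.34. MRPL39, on chromosome 21, had 32.2, 29.7 and 29.1 CPM in WT and 10.1, 10.5 and 12.1 CPM in ATRX_KO (log2 fold change −1.48, adjusted p = 1.42e-06). MRPL20, on 1p, had 22.9, 21.1 and 19 CPM in WT and 37.3, 49.6 and 35.4 CPM in ATRX_KO (log2 fold change 0.96, adjusted p = 8.54e-05). Of 35 tested proteasome subunits 2 were higher and 19 (54.3%) lower, with a median of −0.23. PSMD12 of the lid and PSMB6 of the catalytic core fell by 0.77 and 0.69 on the log2 scale, and PSME2, of the interferon-inducible activator, rose by 0.54. Of 76 nuclear genes for OXPHOS subunits 8 were higher and 24 (31.6%) lower, with a median of −0.11. That share lies between the shares lower of all genes at 20 to 100 CPM (27.5%) and at 100 CPM or more (34.3%). Of 82 cytosolic ribosomal proteins 7 were higher and 19 (23.2%) lower, with a median of −0.04. The share lower was close to that of all genes and under the 34.3% of genes at 100 CPM or more. Leaving out 1 control library at a time gave 2 to 17 of them higher and 7 to 17 lower. Without the second WT library 6 were higher and 7 lower, without the first ATRX_KO library 7 and 10, and without the third ATRX_KO library 17 and 16.

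Noncoding RNAs were among the genes called in both directions. Of 12841 protein-coding genes 22.6% were higher and 23.7% lower. Of 2020 genes annotated as lncRNA 295 (14.6%) were higher and 235 (11.6%) lower, smaller shares than the 20.8% and 21% of all tested genes. LINC01029 and LINC01535 were at 0 in all WT libraries and had 8.18, 10.3 and 7.95 CPM and 9.22, 6.02 and 7.87 CPM in ATRX_KO, at least 35.6-fold and 31.1-fold higher. ZNF528-AS1, at the ZNF528 locus, had 0.311, 0.17 and 0.0847 CPM in WT and 13.4, 16 and 11.2 CPM in ATRX_KO (log2 fold change 6.06, SE 0.28, adjusted p = 4.09e-11), and whether the counting used strand is not given in the sources used here. SNHG25, a host gene of small nucleolar RNA, had 2143, 2236 and 2118 CPM in WT and 903, 923 and 1046 CPM in ATRX_KO (log2 fold change −1.18, adjusted p = 2.12e-07). Of 38 tested snRNA genes, singled out after their values were seen, 1 was higher and 17 were lower, with a median of −1.06. The 38 genes hold 25 different sets of counts and the 17 only 5. Of the 17, 14 are near-identical copies in 2 sets of 7, so they are far fewer than 17 independent measurements. Lower sets were thus 5 of 25, beside 21% of all tested genes lower, and the median counts each copy separately. RNU1-1, which has the same counts as 6 other copies, had 3.27, 3.23 and 3.56 CPM in WT and 1.48, 1.34 and 1.75 CPM in ATRX_KO (log2 fold change −1.13, adjusted p = 0.00815).

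Part of the change followed position on the chromosomes. In 265 blocks of about 60 neighbouring tested genes, 5 blocks had a median log2 fold change of 0.3 or more and 26 of −0.3 or less. On chromosome 21 all 3 blocks were low, with medians from −0.86 to −0.61, and 107 of 169 genes (63.3%) were lower. On chromosome 17, 11 blocks with 668 genes were low, with 350 genes (52.4%) lower, and low blocks also lay on 22 (153 of 281 genes lower), 8p (89 of 174), 203 to 225 Mb of 1q (69 of 120) and the end of 19 (44 of 116). High blocks lay at the start of 1p and at 101 to 120 Mb of chromosome 1 (104 of 183 genes higher, medians 0.54 to 0.65) and at 20.2 to 33.9 and 36.9 to 39.8 Mb of chromosome 19, which hold zinc finger clusters (45 of 117 higher). With etoposide the chromosome 21 blocks had medians from −0.79 to −0.73. In DAXX_KO, against its own WT, the 1q blocks had −0.80 and −0.72 and the 8p blocks from 0.04 to 0.10. Low blocks held 1528 of the 16371 tested genes and 812 (23.6%) of the genes that fell. High blocks held 300 tested genes and 149 (4.38%) of those that rose. The blocks were picked by their own medians, so an excess of such genes in them is built in. The WT libraries of the ATRX series differed from those of the DAXX series by block medians of −0.17 to 0.34. Since ATRX_KO is 1 clone, a gain or loss of chromosome segments in it and an effect of ATRX on these regions cannot be told apart. When each gene was centred on its 30 neighbours on each side, 6575 genes were called. Then 48 mitotic genes, 37 mitochondrial ribosomal proteins, 21 proteasome subunits and 14 collagens were lower, against 48, 39, 19 and 14 without centring. Of the zinc finger genes of chromosome 19, 60 were higher, against 73. Their median went from 0.37 to 0.23 and that of collagens from −0.7 to −0.54. The medians of mitotic genes, mitochondrial ribosomal proteins and proteasome subunits became −0.35, −0.33 and −0.25, against −0.32, −0.34 and −0.23.

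**Figure D4:**
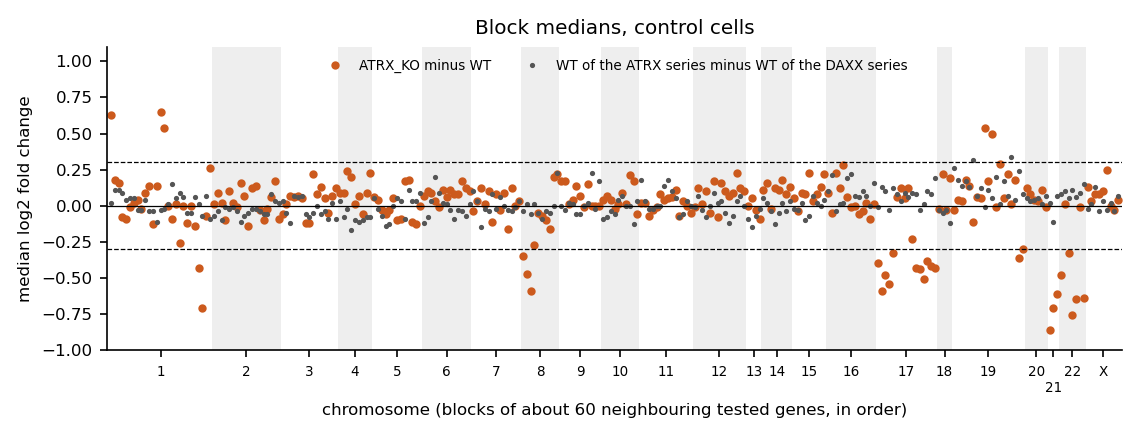
Median log2 fold change of 265 blocks of about 60 neighbouring tested genes, in order along the chromosomes, for ATRX_KO minus WT in control cells (orange) and for WT of the ATRX series minus WT of the DAXX series (grey). Dashed lines mark −0.3 and 0.3, and the blocks of chromosome 21 lie between −0.86 and −0.61.

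The most changed called gene of each of the 5 highest and 5 lowest blocks was named by rule, so its size is a description. In the low blocks these were NCAM2 on chromosome 21 with 15.2, 15.5 and 13.8 CPM in WT and 0.174, 0 and 0 CPM in ATRX_KO, ELFN2 and SH3BP1 on 22, B3GALT5 on 21 and SUSD4 on 1q. NCAM2, a neural adhesion molecule, was at least 59.4-fold lower. In the high blocks they were INKA2-AS1 with 1.71, 0.934 and 1.69 CPM in WT and 88.1, 114 and 89.9 CPM in ATRX_KO (log2 fold change 6.05, SE 0.18, adjusted p = 2.56e-13), TBX15, a factor of limb and adipose development, with 0.778, 0.594 and 1.27 CPM in WT and 12.5, 14.4 and 12 CPM in ATRX_KO (log2 fold change 3.87, SE 0.27, adjusted p = 5.76e-09), LINC01128, ZNF486 and LINC01535. Of the lists above, the falls of mitochondrial ribosomal proteins, proteasome subunits and collagens include members on the low segments, among them MRPL39 and MRPS6 (21), MRPL38, PSMD12, PSMB6 and COL1A1 (17) and MRPL40 (22). Named genes of other lists also lie on low segments, such as the mitotic UBE2S (end of 19), NEK2 (1q) and BIRC5 (17). CDC45 and USP18 (22), DUSP4 (8p), TRIM28 (end of 19) and CHAF1B (21) do as well. So do PINX1 (8p) and WRAP53 (17), named above among shelterin and telomere replication genes. The values given above for single genes are not centred on their neighbours.

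Most changes of at least 2-fold were also called with etoposide, in other libraries of the same clone, for 750 (67.8%) of those higher and 856 (78.7%) of those lower. Of the genes higher in control cells, 2083 were also higher in ATRX_KO with etoposide, which is 61.3% of the control list and 55.3% of the etoposide list, beside 23% of all tested genes. Of the genes lower in control cells, 2219 were also lower, 64.4% and 59.2% of the lists, beside 22.9%. The direction was opposite for 163 of the genes higher and 122 of the genes lower in control. CSF3 and IL1B changed by 6.69 and 6.26 on the log2 scale with etoposide, and a difference from control was not detected for either (adjusted p of the difference 0.922 and 0.819). The effect on HSPA12A differed with etoposide by −3.61 on the log2 scale (adjusted p = 0.000241), that on IL13RA2 by −1.14 (adjusted p = 0.000233) and that on SQSTM1 by −0.97 (adjusted p = 4.21e-05). Clustered histone genes had a median of −0.61 in control and 1.17 with etoposide.

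DAXX_KO cells, compared with the WT libraries of their own series, gave a different picture for cytokines and MHC class II genes, but not for every immune list. Of 16181 genes in the model of all 24 libraries, 1622 were higher in both knockouts, which is 48.0% of the ATRX_KO list and 41.4% of the DAXX_KO list, beside 24.2% of genes higher in DAXX_KO. Likewise 1927 were lower in both, 56.1% and 47.1% of the lists, beside 25.3%. Cytokines had a median of 1.35 in ATRX_KO and −0.36 in DAXX_KO. NF-kB genes had medians of 0.76 and 0.14, interferon-stimulated genes 0.26 and 0.34, and MHC class I genes 0.07 and 0.37. The log2 fold change of IL1B was 6.43 in ATRX_KO and −0.89 in DAXX_KO, where it did not pass the test (adjusted p = 0.0853). The effects differed by 7.32 (adjusted p = 1.77e-11, in a test that called 34.6% of genes), and for CSF3 they differed by 7.19 (adjusted p = 5.73e-09). MHC class II genes went apart, with medians of −1.99 and 1.55, and HLA-DRA and HLA-DRB1 differed between the knockouts by −3.65 (adjusted p = 9.93e-11) and −3.53 (adjusted p = 6.59e-16). Collagens had medians of −0.70 and 0.44, and COL1A1 differed by −1.11 (adjusted p = 2.06e-05). Mitotic genes were lower in both lines, with 48 of 72 called lower in each, 35 of them in both, and medians of −0.32 and −0.44. A difference for NEK2 was not detected (−0.06, adjusted p = 0.788). NEK2 lies on 1q in a block that was low in both lines, with medians of −0.71 in ATRX_KO and −0.8 in DAXX_KO. Lysosome and autophagy genes had medians of 0.36 and 0.49, cholesterol genes 0.45 and 0.27, and TMTC1 rose in both lines. Each knockout is again compared with its own WT, and clone and knockout cannot be told apart in either.

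**Figure D5:**
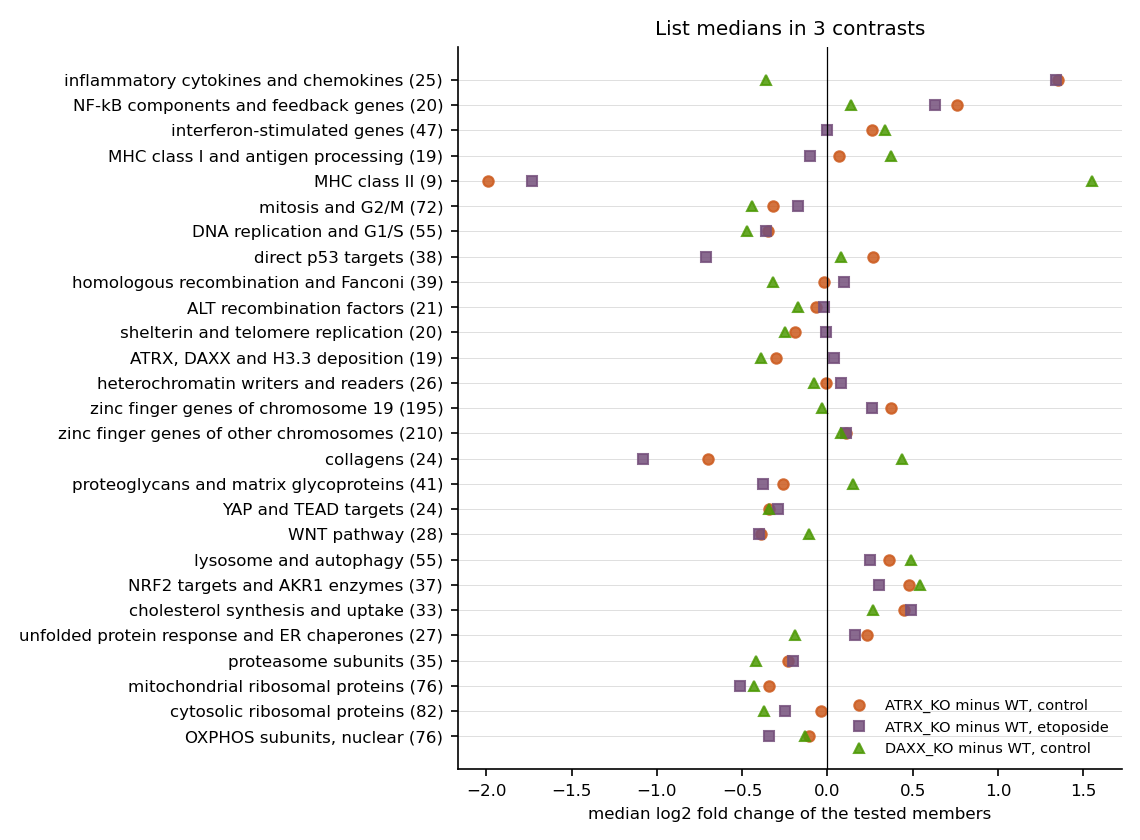
Median log2 fold change of the tested members of 27 gene lists (number tested in control in parentheses) for ATRX_KO minus WT in control (orange circles), ATRX_KO minus WT with etoposide (purple squares) and DAXX_KO minus WT in control (green triangles). The cytokine, MHC class II and collagen medians have the opposite sign in DAXX_KO, and the p53 targets have a median of 0.27 in control and −0.71 with etoposide in ATRX_KO.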

How the data were processed

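Total RNA of 24 libraries had been extracted with Trizol, and 3′ mRNA libraries (QuantSeq, Lexogen) were read from 1 end on a NextSeq. The authors aligned the reads to hg19 with STAR and deposited estimated counts per Ensembl gene from RSEM (version 1.2.3 in the submitters' processing notes). The deposited expected counts were whole numbers, so rounding changed none. The 12 libraries of the ATRX series entered 1 fit, of which the 6 control libraries are compared. Values of 3′ tags are not scaled for gene length.

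Genes with enough counts (edgeR's filterByExpr) were fitted with TMM scaling and edgeR 4.0.16 (quasi-likelihood test, two-sided, R 4.3.3), with Benjamini-Hochberg adjustment over the 16371 genes tested and an FDR of 0.05. The differences between the knockout effects with and without etoposide, and between ATRX_KO and DAXX_KO, were tested as interactions, the latter in a model of all 24 libraries. DESeq2 1.42.0 was an alternative, beside other scalings, filters, sets of libraries, a replicate block, centring on neighbouring genes and leaving out each control library. The scripts were tested on simulated counts with known changes in 200 genes, far fewer than were called in the data. Of these 142 were called, 35 of 67 at 1.5-fold, with 0 of the wrong sign, beside 14 false calls.

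Symbols and positions came from GENCODE 44 on build 37 and promoters from RefSeq. The members and lists were chosen with earlier results of these data known. Genes were named by rule: ATRX and DAXX, the 10 protein-coding genes and 3 lncRNAs with the largest called change in each direction, non-overlapping groups and at least 5 CPM in the higher group, the 5 largest called differences in mean CPM each way, up to 4 called members each way in a list, the most changed gene of the 5 highest and 5 lowest blocks, and the 3 mitotic genes whose promoters are shown. Results for a few genes are not reported here. Library totals give the depth stated in the report. Same-numbered libraries were not treated as pairs. For DAXX_KO libraries, a genotype label disagreed with the titles, which were followed.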

Additional observations from a re-analysis of the deposited data

Results flagged for a closer look

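These genes were singled out because the effect of the ATRX knockout differed, by the edgeR test of the difference itself, between the control and the etoposide libraries or between the ATRX_KO and DAXX_KO lines. They are the genes named by the size of their change, by block, as p53 targets or as MHC class II genes. Values are differences of log2 fold changes with adjusted p-values, and each difference involves 3 libraries a group. For genes with libraries at 0 the fitted differences depend on the prior count and are no bounds, which holds for PI3, RAB43, DRICH1, MORC1, HSPA12A, ZNF260, ZNF486, CA10, PLXNA4, ELAVL4, LRRC4C, THY1, SUSD4 and the unnamed ENSG00000240801.

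Among p53 targets, the effect with etoposide differed from that in control for GDF15 by −2.64 (adjusted p = 1.09e-09), for TP53INP1 by −1.74 (adjusted p = 3.42e-06), for BBC3 by −1.41 (adjusted p = 4.09e-06), for CYFIP2 by −1.56 (adjusted p = 9.07e-08) and for PPM1D by −0.76 (adjusted p = 0.00515). Among genes with the largest increases, the difference was −7.42 (adjusted p = 0.0438) for RAB43, −4.32 (adjusted p = 0.0148) for DRICH1, −3.61 (adjusted p = 0.000241) for HSPA12A, −1.31 (adjusted p = 0.0365) for TMTC1 and −1.14 (adjusted p = 0.000233) for IL13RA2. In the blocks it was −3.42 (adjusted p = 1.14e-06) for INKA2-AS1 and −2.33 (adjusted p = 0.036) for ZNF486. Among genes with the largest decreases it was 4.68 (adjusted p = 0.00345) for CA10, 7.93 (adjusted p = 4.65e-05) for PLXNA4, 2.18 (adjusted p = 0.018) for ELAVL4 and 5.33 (adjusted p = 0.0267) for LRRC4C, so that each was less reduced with etoposide. Among abundant transcripts it was −0.36 (adjusted p = 0.0108) for FTH1, −0.30 (adjusted p = 0.0316) for FTL, −0.38 (adjusted p = 0.0196) for MALAT1, −0.97 (adjusted p = 4.21e-05) for SQSTM1, −0.70 (adjusted p = 0.00812) for BCYRN1, 0.89 (adjusted p = 0.00496) for PLAU and 0.57 (adjusted p = 0.025) for VIM. For DAXX it was 0.69 (adjusted p = 0.00266).

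The ATRX_KO effect minus the DAXX_KO effect in control cells was −2.01 (adjusted p = 2.92e-13) for ATRX and 2.85 (adjusted p = 1.24e-12) for DAXX, the targeted genes. It was also above 0 for PI3 at 8.25 (adjusted p = 0.0497), RAB43 at 15.62 (adjusted p = 0.00358), MORC1 at 5.38 (adjusted p = 0.034), CSF3 at 7.19 (adjusted p = 5.73e-09), HSPA12A at 5.34 (adjusted p = 0.000574), IL1B at 7.32 (adjusted p = 1.77e-11), ZNF260 at 6.17 (adjusted p = 0.00415) and IL13RA2 at 2.80 (adjusted p = 1.42e-11). For MHC class II genes it was −2.98 (adjusted p = 1.88e-09) for HLA-DPB1, −3.53 (adjusted p = 6.59e-16) for HLA-DRB1, −3.65 (adjusted p = 9.93e-11) for HLA-DRA and −3.58 (adjusted p = 6.51e-11) for HLA-DPA1. Among the largest decreases, THY1 differed by −4.67 (adjusted p = 2.39e-12), PLXNA4 by −7.68 (adjusted p = 6.18e-08), ENSG00000240801 by −2.94 (adjusted p = 0.0484) and ENSG00000273119 by −2.36 (adjusted p = 5.02e-06). Abundant transcripts differed by 0.91 (adjusted p = 1.44e-10) for FTH1, 1.36 (adjusted p = 1.81e-13) for FTL, 3.34 (adjusted p = 1.02e-13) for TFPI2, 0.84 (adjusted p = 1.02e-06) for MALAT1 and 2.00 (adjusted p = 4.97e-14) for SQSTM1. The p53 targets GDF15, CYFIP2 and TNFRSF10D differed by 0.69 (adjusted p = 8.18e-05), 1.39 (adjusted p = 1.69e-10) and 1.54 (adjusted p = 2.4e-06). Genes of the blocks differed by −4.58 (adjusted p = 1.91e-08) for ELFN2, −0.84 (adjusted p = 0.0428) for B3GALT5, −2.14 (adjusted p = 1.08e-05) for SH3BP1, 5.93 (adjusted p = 0.000839) for SUSD4, 4.88 (adjusted p = 3.24e-09) for INKA2-AS1, 1.04 (adjusted p = 0.000368) for LINC01128 and 2.48 (adjusted p = 3.74e-05) for TBX15.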

How the results depend on the processing

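The count of 6846 called genes was within 1.5 times of itself under all alternatives except the demand for a 2-fold change, which left 2195 genes, 1107 higher and 1088 lower. Leaving out 1 control library at a time gave 5817 to 6712 genes, 2862 to 3274 higher and 2955 to 3438 lower. Other settings gave 5919 (at least 10 counts in every library) to 7200 (all 24 libraries in one model), and DESeq2 gave 6631. With library totals in place of TMM, the share of calls that were higher went from 49.7% to 56.9% in control and from 50.1% to 60.2% with etoposide, and the median of all genes moved by 0.06 on the log2 scale. Centring each gene on 30 neighbours on each side gave 6575 calls, 82.3% of the original calls were shared, and 43 were called in the opposite direction, against 0 in every other setting. There TOP3A (0.0012), SLC16A1 (−0.11), PFKL (0.14), BNIP3L (0.20), ATP5PB (−0.26) and TIMP2 (0.0663) changed sign, by the construction of that setting. Among all other values for named genes, 8999 kept sign and call, and 338 for 105 genes kept the sign and lost the call. The cytokine median was 2.91 over the members with 10 counts in every library and 2.09 in a fit of the 6 control libraries, against 1.35. The replicate number did not pair the libraries (correlations of deviations from −0.216 to 0.0409), and the replicate block gave 6485 genes, 3194 higher and 3291 lower, and 7220 with etoposide. It changed no other count over all genes by more than 1.5 times. Of the values for lists across all alternatives, 191 counts of higher or lower members, in 76 of 190 such counts, moved by more than 1.5 times, and 108 medians, in 44 of 95 lists and families, by more than the spread between replicates. The called share was 20.4% under 1 CPM and 56.3% at 100 CPM or more, and the part of depth in this was not tested.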
